A study of Mus musculus with 6 samples.

Results

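Collagens, the structural proteins of the extracellular matrix, were followed in the mouse gonadal fat pad (gonadal white adipose tissue, gWAT) as messenger RNA for each chain. The chains were chosen by name: of the 19790 gene identifiers in the deposited table, 44 carried a mouse symbol of the form Col, number, a, number. RNA came from wild-type male mice of strain C57BL/6 that ate a normal chow diet (NCD, 3 libraries) or a high-fat diet (HFD, 3 libraries) for 8 weeks, and the labels name no transgene and no other agent. The labels put the start of the diets at an age of 6 weeks, and the methods give an older age. Libraries were made from mRNA with a TruSeq kit, the deposited values are counts of reads per gene, and the totals ran from 49575113 to 66360046 counts per library.

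Every collagen is a triple helix of chains, made in the endoplasmic reticulum, where prolines and lysines are hydroxylated and the chains fold, and trimmed after secretion. Fibrillar collagens form the cable-like fibres of connective tissue, network collagens form sheets such as basement membrane, and fibril-associated collagens with interrupted triple helices (FACIT) sit on the surface of fibrils. In adipose tissue, basement membrane and type VI beaded filaments wrap each adipocyte, and fibroblasts and progenitor cells of the stroma make most of the fibrillar collagen. Of the 44 chains, 11 were fibrillar, 9 network (6 of basement membrane and 3 short chains), 9 FACIT, 6 beaded filament, 4 transmembrane, 2 multiplexin, 1 anchoring fibril and 2 of other kinds.

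The libraries were not alike in tissue content. Of all counts, 58.6%, 11.2% and 2.30% in NCD replicates 1, 2 and 3 fell on 11 genes secreted by the seminal vesicle. Of those genes 9 passed the threshold as lower on HFD, against 1.9% of all genes tested. Levels are given as CPM, counts relative to the library total, after scaling by the TMM method, always in the order of replicates 1, 2 and 3. Summed TMM-scaled CPM of 8 smooth muscle genes were 6747, 826 and 279 on NCD and 358, 282 and 258 on HFD, and those of 10 epithelial genes were 1454, 149 and 37.5 on NCD and 28.1, 118 and 40.8 on HFD, with Cldn7, Elf3 and Grhl2 at 0 in each HFD library. Adipocyte genes were present in all libraries, with sums of 6751, 29292 and 37698 on NCD and 19966, 17399 and 13854 on HFD, and were lowest in NCD replicate 1. The chains and their classes are therefore described with all 6 libraries and without NCD replicate 1, and the part that other tissue plays in it was not tested. Diets were compared with the quasi-likelihood test of edgeR, adjusted by Benjamini-Hochberg over all genes tested, with a threshold of 0.05. Its p-values measure only the spread between these libraries, and in bulk RNA fewer cells of a type and less RNA per cell cannot be told apart.

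Start sites of 35 chains were matched to RefSeq promoter sequences of GRCm38.p6, and 9 chains had no entry (Col1a1, Col2a1, Col4a3, Col5a2, Col9a3, Col12a1, Col14a1, Col22a1 and Col26a1). The 250 bases before 4 starts are shown, from chains that stood high on HFD (Col3a1, Col8a1, Col6a2) and a chain that stood high in NCD replicate 1 (Col7a1), each window lying outside its gene and outside annotated exons. They lie at chr1:45311288-45311537 on the plus strand, chr16:57754738-57754987 on the minus strand, chr10:76623631-76623880 on the minus strand and chr9:108953336-108953585 on the plus strand. Each is written 5′ to 3′ toward the start, with capitals marking the TATA motif (TATAAA), the CAAT box (letters CCAAT) or the GC box (letters GGGCGG) found on either strand.
Col3a1: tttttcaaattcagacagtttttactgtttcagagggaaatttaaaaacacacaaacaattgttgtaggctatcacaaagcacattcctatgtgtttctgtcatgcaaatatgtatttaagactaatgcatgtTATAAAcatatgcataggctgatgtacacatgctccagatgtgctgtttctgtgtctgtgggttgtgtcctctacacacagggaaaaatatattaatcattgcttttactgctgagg
Col8a1: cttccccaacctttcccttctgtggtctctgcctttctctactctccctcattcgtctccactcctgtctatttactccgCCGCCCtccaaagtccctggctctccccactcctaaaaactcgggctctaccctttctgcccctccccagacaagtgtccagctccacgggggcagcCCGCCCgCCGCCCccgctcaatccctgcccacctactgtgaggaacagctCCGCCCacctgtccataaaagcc
Col6a2: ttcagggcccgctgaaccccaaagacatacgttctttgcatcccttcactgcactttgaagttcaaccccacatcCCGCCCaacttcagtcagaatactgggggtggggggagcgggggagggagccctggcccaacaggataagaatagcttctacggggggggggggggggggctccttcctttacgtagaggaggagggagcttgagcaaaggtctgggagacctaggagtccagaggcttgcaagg
Col7a1: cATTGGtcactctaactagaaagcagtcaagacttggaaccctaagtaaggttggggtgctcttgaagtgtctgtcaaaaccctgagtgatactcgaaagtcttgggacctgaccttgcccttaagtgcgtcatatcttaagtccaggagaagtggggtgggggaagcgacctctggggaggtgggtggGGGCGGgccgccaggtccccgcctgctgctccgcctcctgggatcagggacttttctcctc
The window of Col3a1 held 35.2% G and C and 1 TATA motif, 112 bases before the start, and the window of Col8a1 held 60.8% and 4 GC boxes. The window of Col6a2 held 59.2% and 1 GC box, and a second window of that gene, which overlaps an annotated exon and is not shown, held 3. The window of Col7a1 held 56.4% with 1 GC box and 1 CAAT box, 56 and 245 bases before the start. The median over all windows was 52.4%. Of the 38 windows of collagen chains, 13.2% held a TATA motif, 34.2% a CAAT box and 57.9% a GC box, against 12.4%, 33.8% and 32.7% of the 32851 windows of all genes. Of the 38 windows, 6 lay outside annotated exons and outside their gene, and the compared sets were not matched for G and C content. The letters are a description of these windows and not a measure of binding.

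Collagen chains held a larger share of the counts in each HFD library than in any NCD library. The 44 chains together held 0.13%, 0.66% and 0.554% on NCD and 1.21%, 1.33% and 1.03% on HFD of all counts. The 3 HFD libraries lay above the 3 NCD libraries, with means of 1.19 ± 0.153% and 0.448 ± 0.280% (SD, n = 3), a ratio of 2.66, or 1.96 without NCD replicate 1. Counts on the seminal vesicle genes enter the library total, so the share was also taken outside those 11 genes, where the NCD libraries were at 0.314%, 0.744% and 0.567% and the ratio of means was 2.2, or 1.82 without NCD replicate 1. The summed TMM-scaled CPM of the chains was 2.05 times as high on HFD, or 1.67 times without NCD replicate 1. The exact permutation test (two-sided) of 3 libraries against 3 gave p = 0.1, the smallest it can give.

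On a scale per exon length (TMM-scaled FPKM), 10 chains led: Col3a1 with a mean level of 132 on NCD and 411 on HFD, Col4a1 with 142 and 251, Col4a2 with 90.8 and 179, Col6a1 with 57.9 and 167, Col1a2 with 49.7 and 143, Col15a1 with 86.5 and 55.6, Col6a2 with 33.6 and 94.8, Col5a3 with 53.5 and 60.1, Col1a1 with 20.7 and 89.6, and Col5a2 with 17.9 and 45.9. Col4a1 of basement membrane was first on NCD and Col3a1 of fibrils was first on HFD, and the NCD means of this pair, 142 ± 71.3 and 132 ± 57.6 (SD, n = 3), differed by less than their spread. Col15a1 stood at rank 4 on NCD and rank 9 on HFD, and Col1a1 at rank 9 and rank 7. Exon lengths came from another annotation than the counts may have used, so a level may be off by a constant factor per gene.

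**Figure D1:**
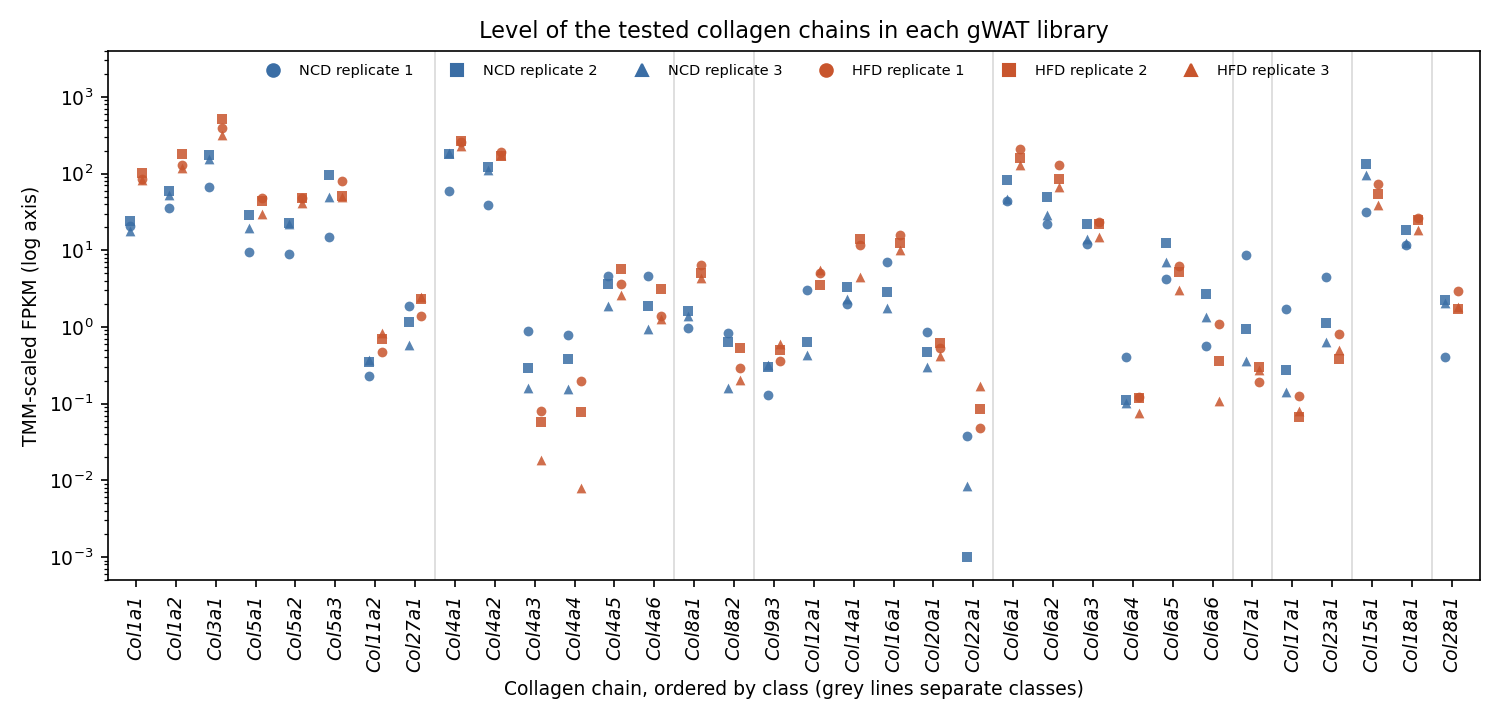
TMM-scaled FPKM (log axis) of the 34 tested collagen chains by class, with a point for each library, NCD in blue and HFD in red, and symbols for the replicate. The HFD points of Col1a1, Col1a2, Col3a1 and Col8a1 lie above the NCD points, NCD replicate 1 stands apart in Col7a1, Col17a1 and Col23a1, and a value of 0 (Col22a1, NCD replicate 2) is drawn at 0.001.

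Of the 44 chains, 34 had enough counts for the test with all libraries, and 10 did not. A chain seen on one diet alone could pass this filter through that diet, so counts over the tested chains are descriptive. Of the 34, 3 passed as higher on HFD (Col1a1, Col1a2 and Col8a1, or 8.82%) and 0 as lower, against 5.58% higher and 1.9% lower among the 15241 genes tested. The share of chains called is near that background. At an unadjusted p under 0.05 the edgeR test gave 16 of the 34 chains, against 4524 of the 15241 genes. DESeq2 called 10 chains higher (29.4%) and 3 lower (8.82%) at the adjusted threshold, against 14.1% and 11.5% of all genes. The median log2 fold change was 0.74 over the chains and -0.08 over all genes tested. The 3 HFD libraries lay above the 3 NCD libraries for 16 of the 34 chains (47.1%) and below them for 3 (8.82%), against 20.5% and 18.7% of all genes tested.

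Without NCD replicate 1, 35 chains were tested, and 9 passed as higher (25.7%) and 0 as lower, against 10.7% and 10.1% of the 15510 genes tested. The 9 were Col1a1, Col1a2, Col3a1, Col5a2, Col6a1, Col8a1, Col12a1, Col16a1 and Col22a1. With each of the other 5 libraries left out in turn, 0 chains passed by edgeR, while between 2 and 7 genes passed in all. In those fits 11 to 16 chains had an unadjusted p under 0.05, against 2988 to 4345 of the 15433 to 15764 genes tested. With NCD replicate 3 alone against the 3 HFD libraries, 37 chains were tested and 3 passed as higher (Col1a1, Col12a1 and Col16a1, or 8.11%), against 1.54% higher and 1.78% lower among the 15946 genes tested. That comparison, added after the data had been seen, takes the lone NCD library to vary as the HFD libraries do.

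**Figure D2:**
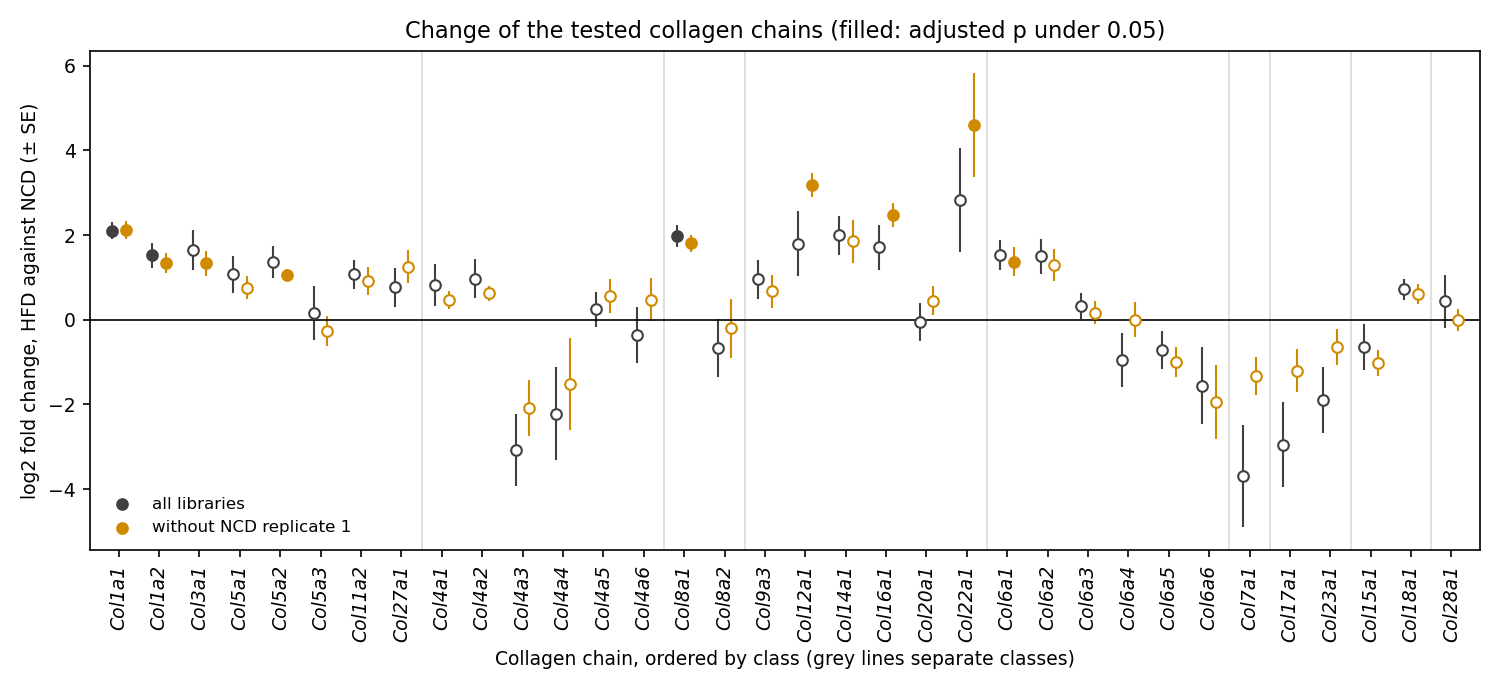
Log2 fold change, HFD against NCD, with its standard error for each of the 34 tested chains, in grey with all libraries and in orange without NCD replicate 1, filled where the adjusted p was under 0.05. Filled grey points mark Col1a1 at 2.11, Col1a2 at 1.52 and Col8a1 at 1.98, and Col12a1 moves from 1.80 to 3.18 when NCD replicate 1 is left out.

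Among the fibrillar chains, 8 of 11 were tested, and all 8 had a positive log2 fold change (median 1.22). Of these 6 lay higher on HFD without overlap (75.0%, against 20.5% of all genes). Without NCD replicate 1, 4 of 9 passed as higher (44.4%, against 10.7%), with 8 positive changes and 1 negative. With all libraries 2 passed (25.0%, against 5.58%), both of type I collagen, the main fibril of tendon, bone and scar. Col1a1 (chr11:94936224-94953042, GRCm38.p6) was measured at 122, 141 and 106 on NCD and 504, 598 and 491 on HFD in TMM-scaled CPM. The groups did not overlap, and NCD replicate 1 lay between the other NCD libraries, 123 ± 17.6 on NCD and 531 ± 58.1 on HFD (mean ± SD, n = 3). It had a log2 fold change of 2.11 (SE 0.211, adjusted p = 0.0194), and 2.12 (SE 0.206, adjusted p = 0.00652) without NCD replicate 1. Col1a2 (chr6:4505618-4541543), the partner chain of type I, was measured at 192, 321 and 285 on NCD and 702, 953 and 639.5 on HFD. The lowest HFD library lay above the highest NCD library, and NCD replicate 1 was lowest, 266 ± 66.6 on NCD and 765 ± 166 on HFD (mean ± SD, n = 3). The fit gave a log2 fold change of 1.52 (SE 0.30, adjusted p = 0.0398), and 1.35 (SE 0.235, adjusted p = 0.0168) without NCD replicate 1. Over the 16 other settings the adjusted p of Col1a1 ran from 6.81e-26 to 0.0971, with 10 calls, and that of Col1a2 from 6.05e-06 to 0.133, with 7 calls. Both kept a positive change under all 16.

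Col3a1 (chr1:45311538-45349706), whose homotrimer forms the fine reticular fibres of soft organs, was measured at 367, 966 and 865 on NCD and 2162, 2904 and 1797 on HFD in TMM-scaled CPM. All HFD libraries lay above all NCD libraries, and NCD replicate 1 was the lowest, 733 ± 321 on NCD and 2288 ± 564 on HFD (mean ± SD, n = 3). It did not pass with all libraries and passed without NCD replicate 1. The fit gave a log2 fold change of 1.64 (SE 0.476, adjusted p = 0.0852), and 1.34 (SE 0.294, adjusted p = 0.0304) without NCD replicate 1. Col5a2 (chr1:45374331-45503282), a chain of type V collagen that sets the diameter of type I fibrils, lies 24624 bases from Col3a1 and stood at 59.8, 149 and 146 on NCD and 323, 319 and 271 on HFD. Again the groups did not overlap and NCD replicate 1 was lowest, and Col5a2 had a log2 fold change of 1.36 (SE 0.372, adjusted p = 0.0759), and 1.06 (SE 0.143, adjusted p = 0.00982) without NCD replicate 1. Over the other settings the adjusted p ran from 0.00142 to 0.237 for Col3a1 and from 0.00495 to 0.204 for Col5a2.

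The other type V chains did not pass in either fit. Col5a1 stood at 78.9, 243 and 165 on NCD and 408, 372 and 249 on HFD, with the groups just apart, and had a log2 fold change of 1.08 (SE 0.438, adjusted p = 0.164), and 0.76 (SE 0.278, adjusted p = 0.106) without NCD replicate 1. Col5a3, the third chain of type V, stood at 90.9, 587 and 305 on NCD and 489.6, 311 and 302 on HFD. Its highest level was in NCD replicate 2 and its lowest in NCD replicate 1, and the groups overlapped. The direction differed between the fits, with a log2 fold change of 0.17 (SE 0.639, adjusted p = 0.88), and -0.26 (SE 0.352, adjusted p = 0.624) without NCD replicate 1. Col11a2 (log2 fold change 1.08, adjusted p = 0.102) and Col27a1 (0.77 and 0.307) of minor fibrils were low, at 1.46 to 5.23 and 4.48 to 18.7 TMM-scaled CPM. Col11a2 was at 0.92 (adjusted p = 0.0969) without NCD replicate 1 and Col27a1 at 1.25 (adjusted p = 0.0735). Col2a1 and Col11a1 of cartilage were at or near 0, with 4, 0 and 0 counts on NCD and 4, 0 and 2 on HFD for Col2a1, and 22, 10 and 0 on NCD and 0 in all HFD libraries for Col11a1. Col24a1 was counted 6, 0 and 6 times on NCD and 7, 81 and 246 times on HFD, and was not among the chains tested with all libraries. Without NCD replicate 1 it had a log2 fold change of 4.92 (adjusted p = 0.12).

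Of the network chains, 8 of 9 were tested, and 4 had a positive and 4 a negative log2 fold change. On HFD 3 lay higher without overlap (37.5%, against 20.5% of all genes) and 1 lower (12.5%, against 18.7%). Without NCD replicate 1, 5 had a positive and 3 a negative change. In each fit 1 of 8 passed (12.5%, against 5.58% with all libraries and 10.7% without NCD replicate 1). That chain was Col8a1 (chr16:57624256-57754737), a short-chain collagen of vessel walls and of the basement membrane beneath the corneal endothelium, whose promoter window held 4 GC boxes. It was measured at 4.9, 8.25 and 7.16 on NCD and 32.4, 25.6 and 22.2 on HFD in TMM-scaled CPM. The lowest HFD library was far above the highest NCD library, 6.77 ± 1.71 on NCD and 26.7 ± 5.18 on HFD (mean ± SD, n = 3). Col8a1 had a log2 fold change of 1.98 (SE 0.266, adjusted p = 0.0219), and 1.81 (SE 0.203, adjusted p = 0.00703) without NCD replicate 1, and over the other settings its adjusted p ran from 2.18e-09 to 0.0971, with 9 calls of 16. Its partner chain Col8a2 was low, at 3.62, 2.78 and 0.689 on NCD and 1.25, 2.31 and 0.893 on HFD, with overlapping groups and a log2 fold change of -0.66 (adjusted p = 0.54), or -0.20 (adjusted p = 0.858) without NCD replicate 1. Col10a1, the short chain of growth cartilage, had 0, 0 and 3 counts on NCD and 11, 6 and 0 on HFD.

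Col4a1 and Col4a2 are transcribed head to head and pair in the basement membrane of most tissues, adipocytes and capillaries included. Col4a1 (chr8:11198423-11312889) was measured at 393, 1195 and 1224 on NCD and 1715, 1744 and 1516 on HFD in TMM-scaled CPM. Col4a2 (chr8:11312805-11449287) was measured at 248, 779.8 and 729 on NCD and 1226, 1106 and 1122 on HFD. In both the HFD libraries lay above the NCD libraries, but NCD replicate 1 stood far below the other NCD libraries, which lay nearer to the HFD level. Neither passed: Col4a1 had a log2 fold change of 0.82 (SE 0.485, adjusted p = 0.301), and 0.47 (SE 0.205, adjusted p = 0.158) without NCD replicate 1, and Col4a2 a log2 fold change of 0.98 (SE 0.463, adjusted p = 0.217), and 0.62 (SE 0.182, adjusted p = 0.0626) without NCD replicate 1. The annotated genes overlap by 85 bases and whether the counting used strand is not stated in the sources used here, so reads there may be assigned to either.

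The other basement membrane chains, known best from kidney, lung and epithelia, were lower in level, and none passed in either fit. Col4a3 stood at 7.52, 2.46 and 1.38 on NCD and 0.693, 0.491 and 0.159 on HFD, all NCD libraries above all HFD libraries, with a log2 fold change of -3.07 (SE 0.847, adjusted p = 0.0773), and -2.08 (SE 0.656, adjusted p = 0.0755) without NCD replicate 1. Its head-to-head neighbour Col4a4 stood at 7.89, 3.85 and 1.56 on NCD and 1.98, 0.791 and 0.0797 on HFD, with overlap, a log2 fold change of -2.22 and an adjusted p of 0.233, or -1.50 and 0.362 without NCD replicate 1. In both chains the level was highest in NCD replicate 1 and lowest of the NCD libraries in replicate 3, as the epithelial and smooth muscle sums were, and the part of that tissue was not tested. Col4a5 (log2 fold change 0.25) and Col4a6 (-0.36) overlapped between the diets, with adjusted p of 0.717 and 0.739. Col4a6 turned to 0.48 without NCD replicate 1 and Col4a5 was then at 0.56 (adjusted p = 0.532 and 0.367).

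Of the 9 FACIT chains, 6 were tested, and 5 lay higher on HFD without overlap (83.3%, against 20.5% of all genes) and had a positive log2 fold change. With all libraries 0 passed by edgeR, and 2 of 6 had an unadjusted p under 0.05, against 4524 of the 15241 genes tested. Without NCD replicate 1, 3 of 6 passed as higher (against 10.7% of all genes), and with each of the other 5 libraries left out in turn 0 passed. In those 5 fits 1 or 2 had an unadjusted p under 0.05, against 2988 to 4345 of the 15433 to 15764 genes tested. Col12a1 (chr9:79598987-79721141), which coats type I fibrils, was measured at 37.3, 7.64 and 5.21 on NCD and 62.3, 43 and 68.2 on HFD in TMM-scaled CPM. NCD replicate 1 stood at a level several times that of the other NCD libraries, and all HFD libraries lay above it. Col12a1 had a log2 fold change of 1.80 (SE 0.764, adjusted p = 0.179), and 3.18 (SE 0.295, adjusted p = 0.00611) without NCD replicate 1. Over the other settings its adjusted p ran from 0.00611 to 0.362.

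Col16a1 (chr4:130047817-130099277), found near fibrils and basement membranes, was measured at 36.8, 14.7 and 9.29 on NCD and 82.3, 64.9 and 51.9 on HFD in TMM-scaled CPM. It showed the same order, with NCD replicate 1 highest on NCD and below every HFD library, and a log2 fold change of 1.71 (SE 0.526, adjusted p = 0.0954), and 2.48 (SE 0.292, adjusted p = 0.00769) without NCD replicate 1. Its adjusted p over the other settings ran from 0.00769 to 0.215. Col14a1, which binds the surface of type I fibrils, stood at 12.8, 21.7 and 15 on NCD and 76.6, 91.7 and 29 on HFD, the third HFD library nearest to NCD, and stayed just outside the threshold with a log2 fold change of 1.99 (SE 0.461, adjusted p = 0.0541), and 1.85 (SE 0.512, adjusted p = 0.055) without NCD replicate 1.

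Col22a1, a chain of tissue junctions, was near the limit of detection, with 11, 0 and 4 counts in NCD replicates 1, 2 and 3 and 25, 64 and 95 in HFD replicates 1, 2 and 3. HFD libraries lay above NCD libraries. It had a log2 fold change of 2.84 (SE 1.23, adjusted p = 0.184), and 4.59 (SE 1.23, adjusted p = 0.04996) without NCD replicate 1, both from these few counts. Over the other settings in which it was tested its adjusted p ran from 0.04996 to 0.437, with 1 call. Col9a3 was low at 0.396, 0.903 and 0.986 on NCD and 1.09, 1.52 and 1.85 on HFD TMM-scaled CPM (adjusted p = 0.222, and 0.265 without NCD replicate 1), and Col20a1 overlapped between the diets (log2 fold change -0.06, adjusted p = 0.943, and 0.45, adjusted p = 0.39, without NCD replicate 1). Col9a1 had 4 counts in HFD replicate 1 and 0 elsewhere, and Col9a2 and Col19a1 had 0 counts in all libraries.

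The type VI chains, which form the beaded filaments around adipocytes, divided by chain. All 6 were tested, and 3 had a positive and 3 a negative log2 fold change with all libraries. On HFD 2 lay higher without overlap (33.3%, against 20.5% of all genes). With all libraries 0 passed by edgeR, and 2 had an unadjusted p under 0.05, against 4524 of the 15241 genes tested. Without NCD replicate 1, 1 of 6 passed as higher (16.7%, against 10.7%). Col6a1 (chr10:76708792-76726044) was measured at 178, 342 and 192 on NCD and 869.6, 656 and 528 on HFD in TMM-scaled CPM. Col6a2 (chr10:76595756-76623630), 85161 bases away on the same chromosome, was measured at 134, 297 and 174 on NCD and 788, 516 and 405 on HFD. Both were higher in every HFD library than in any NCD library, with HFD replicate 1 highest. Col6a1 had a log2 fold change of 1.53 (SE 0.356, adjusted p = 0.0549), and 1.37 (SE 0.34, adjusted p = 0.0414) without NCD replicate 1, and Col6a2, which passed in neither fit, a log2 fold change of 1.5 (SE 0.406, adjusted p = 0.075), and 1.29 (SE 0.375, adjusted p = 0.0623) without NCD replicate 1. Over the other settings the adjusted p ran from 0.000372 to 0.159 for Col6a1, with 2 calls of 16, and from 0.00318 to 0.181 for Col6a2, with 1 call.

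Col6a3 (chr1:90766860-90844001), the long chain whose tail is cut off as the peptide endotrophin, was measured at 132, 241 and 153 on NCD and 254, 240.3 and 163 on HFD in TMM-scaled CPM. NCD replicate 2 lay between HFD replicates 1 and 2, and the groups overlapped, with a log2 fold change of 0.32 (SE 0.303, adjusted p = 0.504), and 0.17 (SE 0.276, adjusted p = 0.691) without NCD replicate 1. Col6a5, a chain related to Col6a3, stood at 39.7, 116 and 65.2 on NCD and 57.5, 48.6 and 28.7 on HFD (adjusted p = 0.325). Col6a6, another such chain, stood at 5.18, 24.6 and 12.3 on NCD and 10, 3.33 and 1.0 on HFD (adjusted p = 0.302). Both were highest in NCD replicate 2 and neither passed. Leaving out NCD replicate 1, their log2 fold changes were -0.999 and -1.94, again outside the threshold (adjusted p = 0.0993 and 0.165). Col6a4 was low, with 2.98 TMM-scaled CPM as its level in NCD replicate 1 and 0.902 or less elsewhere, and its log2 fold change of -0.95 (adjusted p = 0.36) was 0.0062 (adjusted p = 0.993) without NCD replicate 1.

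Ratios of pairs of chains were compared within libraries, where the scaling between libraries cancels. The log2 ratio of Col6a3 to Col6a1 counts was -0.435, -0.504 and -0.331 on NCD and -1.77, -1.45 and -1.7 on HFD. The NCD libraries lay close together at -0.423 ± 0.0872 and the HFD libraries at -1.64 ± 0.170 (SD, n = 3), with no overlap and a difference of -1.22, which was also -1.22 without NCD replicate 1. In linear terms there were 0.740, 0.705 and 0.795 counts of Col6a3 per count of Col6a1 on NCD and 0.292, 0.367 and 0.309 on HFD. The exact permutation test gave p = 0.1, the smallest possible, and 0.4 after Benjamini-Hochberg adjustment over the 6 ratios. The ratio of Col6a1 to Col6a2 overlapped, with a difference of 0.04 (exact p = 1), as did Col4a1 to Col4a2 with -0.15 (exact p = 0.2) and Col5a1 to Col5a2 with -0.28 (exact p = 0.3).

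The log2 ratio of Col1a1 to Col1a2 was -0.651, -1.19 and -1.43 on NCD and -0.477, -0.673 and -0.381 on HFD. NCD replicate 1 reached into the range of the HFD libraries, and the other NCD libraries lay below all of them, for a difference of 0.58 (exact permutation p = 0.2), or 0.80 without NCD replicate 1. Col3a1 to Col1a1, a ratio of reticular to type I fibrils, was 1.59, 2.78 and 3.03 on NCD and 2.1, 2.28 and 1.87 on HFD on the log2 scale. NCD replicate 1 was lowest and the other NCD libraries highest of all, for a difference of -0.38 (exact permutation p = 0.5), or -0.82 without NCD replicate 1.

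Several chains lie beside each other in the genome, and their changes with all libraries were set side by side. Col3a1 and Col5a2 on chromosome 1 had log2 fold changes of 1.64 and 1.36, and Col6a1 and Col6a2 on chromosome 10 of 1.53 and 1.5. Col18a1, which lies 326133 bases from Col6a1, had 0.72. Col6a4, Col6a5 and Col6a6 on chromosome 9, separated by 27854 and 27823 bases, had -0.95, -0.71 and -1.55, with none past the threshold, and 0.0062, -0.999 and -1.94 without NCD replicate 1. Col4a3 and Col4a4 on chromosome 1 had -3.07 and -2.22, and Col4a5 and Col4a6, 1274 bases apart on chromosome X, had 0.25 and -0.36, and 0.56 and 0.48 without NCD replicate 1. Neighbours in one annotated cluster can share reads where genes overlap, which the Col4a3 and Col4a4 genes do over 114 bases.

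**Figure D3:**
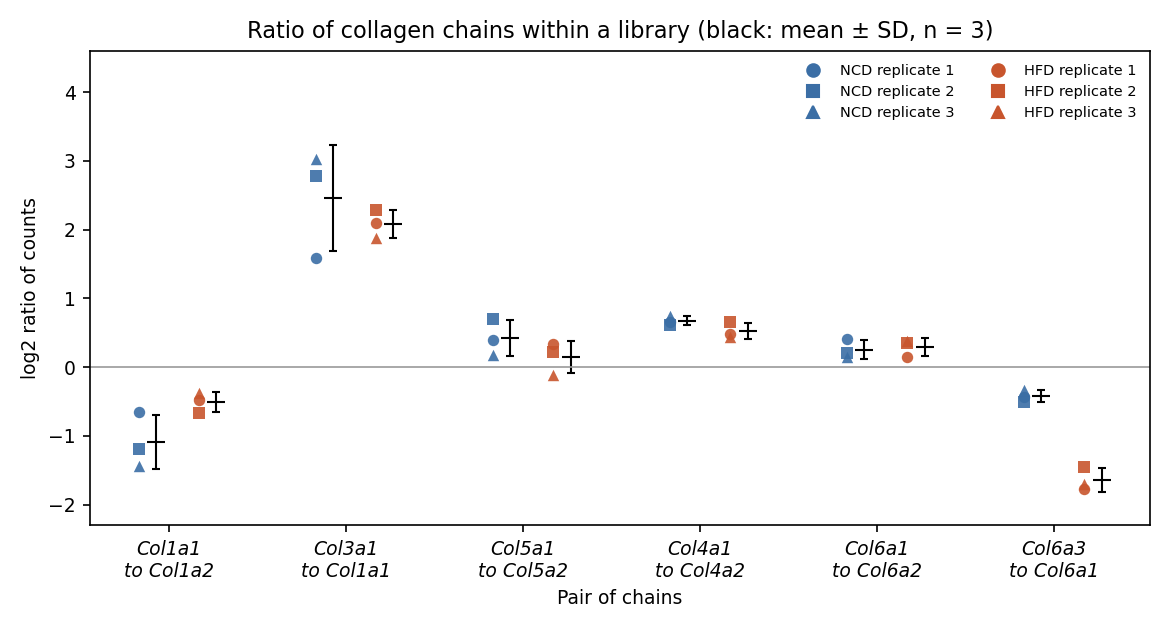
Log2 ratio of counts for 6 pairs of collagen chains in each library (vertical axis), NCD in blue and HFD in red, with black bars for mean ± SD (n = 3). Col6a3 to Col6a1 separates the diets, at -0.423 on NCD and -1.64 on HFD, and NCD replicate 1 stands apart from the other NCD libraries in Col3a1 to Col1a1 and in Col1a1 to Col1a2.

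The multiplexins carry heparan or chondroitin sulfate chains at the rim of basement membranes. Col15a1 (chr4:47207655-47313167) was measured at 191, 793 and 579.5 on NCD and 447, 322 and 235 on HFD in TMM-scaled CPM. NCD replicates 2 and 3 lay above all HFD libraries and NCD replicate 1 below all of them, with a log2 fold change of -0.64 (SE 0.542, adjusted p = 0.461), and -1.02 (SE 0.301, adjusted p = 0.0644) without NCD replicate 1. Over the other settings its adjusted p ran from 0.0644 to 0.839, with 0 calls. Col18a1, the source of the fragment endostatin, stood at 79.1, 126 and 83.5 on NCD and 181, 170.3 and 124 on HFD, with overlap and an adjusted p of 0.127, or 0.13 without NCD replicate 1.

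Chains of epithelial attachment stood highest in NCD replicate 1. Col7a1 (chr9:108953586-108984875), which forms the anchoring fibrils under epithelia, was measured at 79.2, 8.61 and 3.35 on NCD and 1.75, 2.76 and 2.5 on HFD in TMM-scaled CPM. It was 23.7 times as high in NCD replicate 1 as in NCD replicate 3, and all HFD libraries lay below all NCD libraries. It did not pass, with a log2 fold change of -3.70 (SE 1.21, adjusted p = 0.108), and -1.34 (SE 0.447, adjusted p = 0.0866) without NCD replicate 1. Col17a1 of hemidesmosomes stood at 9.53, 1.56 and 0.80 on NCD and 0.711, 0.372 and 0.446 on HFD (log2 fold change -2.95, adjusted p = 0.117), and Col23a1 at 25.4, 6.46 and 3.63 on NCD and 4.61, 2.13 and 2.84 on HFD (log2 fold change -1.89, adjusted p = 0.167). Without NCD replicate 1 the log2 fold change of Col17a1 was -1.20 and that of Col23a1 -0.65 (adjusted p = 0.15 and 0.316). Col13a1 had 131, 35 and 2 counts on NCD and 0 in each HFD library and was not tested, Col25a1 had 10 counts or fewer in every library, Col26a1 had 53, 7 and 0 counts on NCD and 12, 0 and 4 on HFD, and Col28a1, found near peripheral nerves, overlapped, with a log2 fold change of 0.44 (adjusted p = 0.664) that was -0.00025 (adjusted p = 0.999) without NCD replicate 1. The epithelial and smooth muscle sums were also highest in NCD replicate 1, and their part in these levels was not tested.

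Across the 34 tested chains, 9 were highest of all libraries in NCD replicate 1 (Col4a3, Col4a4, Col4a6, Col6a4, Col7a1, Col8a2, Col17a1, Col20a1 and Col23a1), or 26.5%, against 33.1% of all tested genes, and 19, or 55.9%, were lowest of the NCD libraries there, against 45.6% of all tested genes. In 13 chains NCD replicate 1 exceeded replicate 2 and replicate 2 exceeded replicate 3, the order of the seminal vesicle share. The share of all genes with that order was not taken, so this number has no background. Col12a1 and Col16a1, higher in every HFD library than in any NCD library, were among the 13. The major chains of type I, III, IV, V and VI were not among the 9. Col1a1 was at 1.15 times the level of NCD replicate 3, and Col1a2 was at 0.673, Col3a1 at 0.424, Col4a1 at 0.321 and Col5a3 at 0.298 times that level.

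**Figure D4:**
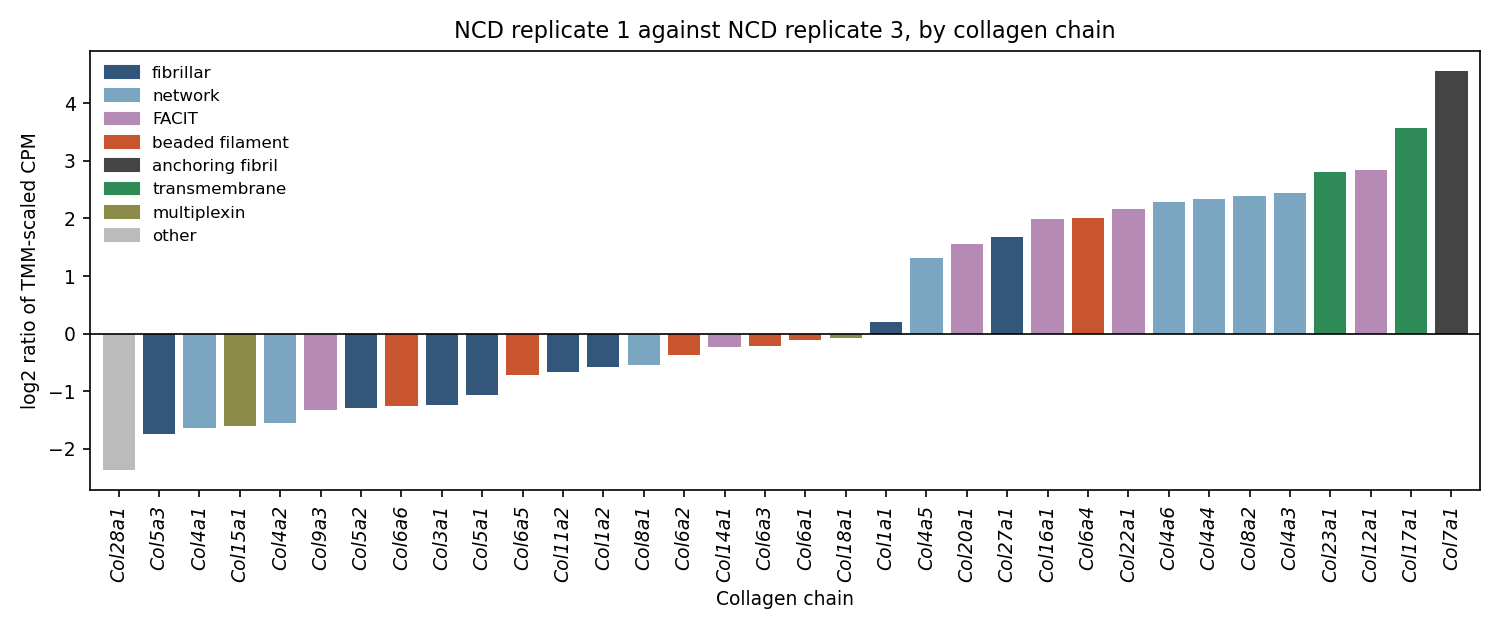
Log2 ratio of TMM-scaled CPM in NCD replicate 1 to NCD replicate 3 for each tested collagen chain, coloured by class and ordered by size. Col7a1, with 23.7 times the level in NCD replicate 1, Col17a1 and Col12a1 stand at the upper end, and Col4a1 and Col4a2, Col5a3 and Col3a1 lie below 0.

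The make-up of the collagen pool was compared as each class's share of all collagen counts in a library. Fibrillar chains took 35.3%, 37.4% and 36.3% on NCD and 44%, 51.7% and 46.5% on HFD, all HFD libraries above all NCD libraries, with means of 36.3 ± 1.08% and 47.4 ± 3.95% (SD, n = 3). The 3 NCD libraries, replicate 1 included, differed by little in this share. The difference was 11.1 percentage points, or 10.5 without NCD replicate 1 (exact permutation p = 0.1, the smallest possible). Col3a1 took 14%, 15% and 16.7% on NCD and 20.7%, 27.4% and 22.1% on HFD of collagen counts and Col1a1 4.65%, 2.18% and 2.05% on NCD and 4.82%, 5.64% and 6.05% on HFD, both without overlap between the diets. On counts per exon length Col1a1 did overlap, at 4.845% in NCD replicate 1 and 4.838% in HFD replicate 1. Of collagen counts, Col1a2 took 7.3%, 4.96% and 5.52% on NCD and 6.71%, 9.0% and 7.88% on HFD. Col5a3 took 3.46%, 9.09% and 5.89% on NCD and 4.68%, 2.94% and 3.72% on HFD. Both overlapped between the diets, and the even NCD share of the class did not hold chain by chain.

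Multiplexin chains took 10.3%, 14.2% and 12.8% on NCD and 6.0%, 4.65% and 4.43% on HFD, all HFD libraries below all NCD libraries, a difference of -7.41 percentage points, or -8.50 without NCD replicate 1 (exact permutation p = 0.1). The mean share of Col15a1 was 10.2% on NCD and 3.41% on HFD. The network share was 27.6%, 31.4% and 38.4% on NCD and 28.8%, 27.7% and 33.1% on HFD (difference -2.59, exact p = 0.7) and the beaded filament share 18.7%, 15.8% and 11.5% on NCD and 18.9%, 13.8% and 13.9% on HFD (difference 0.18, exact p = 0.9), both with overlap. The FACIT share was 3.5%, 0.735% and 0.621% on NCD and 2.15%, 1.94% and 1.9% on HFD, where NCD replicate 1 was highest and the other NCD libraries lowest of all, so that the difference was 0.38 with all libraries (exact p = 1) and 1.32 without NCD replicate 1. The remaining classes held 4.62% of collagen counts in NCD replicate 1 and 0.418% or less in every other library. A share of the pool is relative, and a class can lose share while its level holds. Shares computed from counts per exon length gave differences of 10.5 for fibrillar and -7.70 for multiplexin chains.

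**Figure D5:**
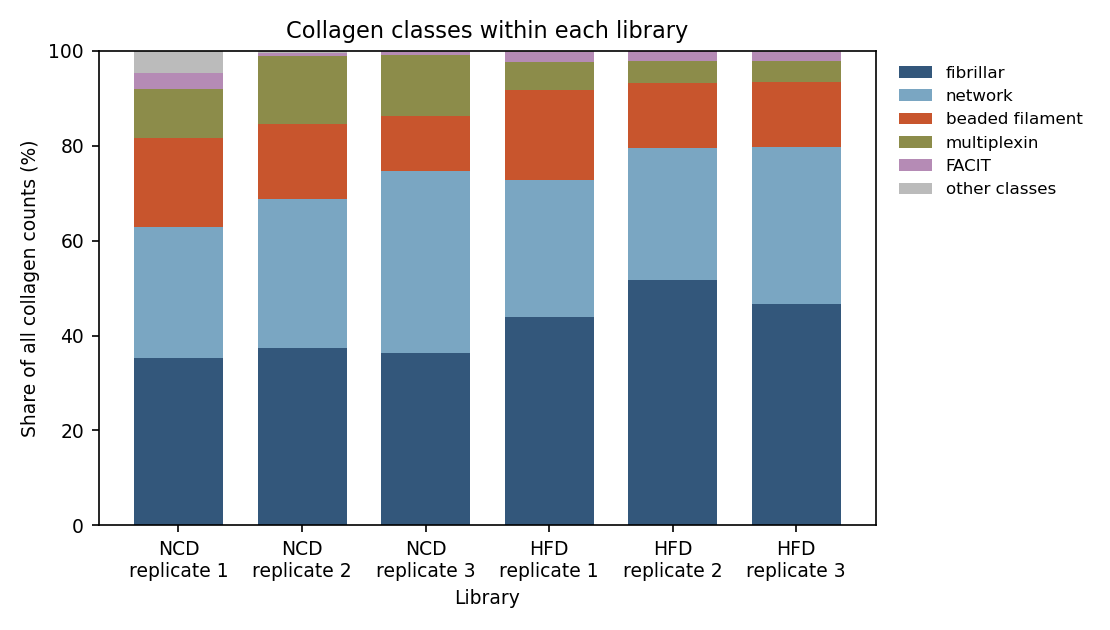
Share of all collagen counts (%) taken by each class in each library, stacked to 100%. Fibrillar chains take 35.3% to 37.4% in the NCD libraries and 44.0% to 51.7% in the HFD libraries, and multiplexin chains 10.3% to 14.2% and 4.43% to 6.00%.

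Genes that make collagen were taken as a list of 33, from hydroxylases to the proteases that trim procollagen. Of 30 tested, 8 passed as higher on HFD (26.7%) and 1 as lower (3.33%), against 5.58% and 1.9% of all tested genes, and the median log2 fold change was 0.94. Without NCD replicate 1, 13 of 33 passed as higher (39.4%, against 10.7% of all genes) and 2 as lower (6.06%, against 10.1%). With NCD replicate 3 alone the median log2 fold change was 0.84. With each of the other 5 libraries left out in turn, 0 passed. In those fits 13 to 16 had an unadjusted p under 0.05, against 2988 to 4345 of the 15433 to 15764 genes tested. With all libraries, 4 of 11 hydroxylases of proline and lysine passed as higher (36.4%, against 5.58% of all genes). Of the others, 1 of 6 folding factors, 1 of 2 glycosylation genes and 2 of 7 propeptide cleavage genes passed as higher. Of the 4 secretion genes tested there, 0 passed and 0 had an unadjusted p under 0.05. Without NCD replicate 1, 1 of 5 secretion genes passed as lower (20%, against 10.1% of all genes). In that fit 2 of the 5 had an unadjusted p under 0.05, against 5825 of the 15510 genes tested. P4hb of the hydroxylase list and Serpinh1 and Ppib of the folding list passed in neither fit. Their log2 fold changes were -0.57, 0.34 and 0.07 with all libraries (adjusted p = 0.547, 0.696 and 0.899). Without NCD replicate 1 they were 0.37, -0.02 and 0.46 (adjusted p = 0.305, 0.971 and 0.13).

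Plod2, a lysyl hydroxylase that acts on the ends of the chains and so on cross-links, was measured at 13.1, 13.2 and 17.9 on NCD and 29.3, 47.7 and 48.2 on HFD in TMM-scaled CPM. The groups did not overlap, and it had a log2 fold change of 1.5 (SE 0.255, adjusted p = 0.0289), and 1.44 (SE 0.283, adjusted p = 0.0232) without NCD replicate 1. Fkbp10, the folding factor that works with it, stood at 13.4, 15.7 and 15.6 on NCD and 29.6, 55.8 and 56.4 on HFD, with a log2 fold change of 1.66 (SE 0.278, adjusted p = 0.0282), and 1.61 (SE 0.315, adjusted p = 0.0228) without NCD replicate 1. HFD replicate 1 was the lowest HFD library for both, yet above every NCD library. Plod1, the hydroxylase of the helix, stood at 49.1, 89.6 and 97.4 on NCD and 187, 204 and 214 on HFD and had a log2 fold change of 1.36 (SE 0.283, adjusted p = 0.0447), and 1.12 (SE 0.133, adjusted p = 0.00786) without NCD replicate 1. Plod3 (log2 fold change 0.94) and P3h1 (1.02) did not pass with all libraries (adjusted p = 0.153 and 0.103) and passed without NCD replicate 1 (adjusted p = 0.0233 and 0.014). P4ha1, P3h2 and Tll1 also passed as higher with all libraries (adjusted p = 0.0496, 0.046 and 0.0496).

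Colgalt1 and Colgalt2, which add galactose to hydroxylysine, moved in opposite directions. Colgalt1 stood at 71.7, 90 and 86 on NCD and 245, 161 and 179 on HFD, with a log2 fold change of 1.24 (SE 0.217, adjusted p = 0.0306), and 1.16 (SE 0.21, adjusted p = 0.0184) without NCD replicate 1. Colgalt2 stood at 2.83, 4.75 and 4.39 on NCD and 1.21, 0.803 and 0.845 on HFD, all HFD libraries below all NCD libraries, with a log2 fold change of -2.07 (SE 0.35, adjusted p = 0.0289), and -2.25 (SE 0.304, adjusted p = 0.00982) without NCD replicate 1. Bmp1, the protease that cuts the C-terminal propeptide, stood at 35, 54.5 and 52.8 on NCD and 97.3, 136 and 168 on HFD, with no overlap and a log2 fold change of 1.5 (SE 0.278, adjusted p = 0.0355), and 1.34 (SE 0.253, adjusted p = 0.0209) without NCD replicate 1.

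Among 10 receptors of collagen, 9 were tested and 2 passed as higher (22.2%, against the same 5.58%), and 4 passed without NCD replicate 1 (44.4%, against 10.7%). With each of the other 5 libraries left out in turn 0 passed by edgeR. In those fits 3 to 5 had an unadjusted p under 0.05, against 2988 to 4345 of the 15433 to 15764 genes tested. The median log2 fold change of the receptors was 0.67 with all libraries and 0.99 with NCD replicate 3 alone. Mrc2, the receptor that takes up collagen fragments, was measured at 12.8, 20.2 and 17.2 on NCD and 167, 80.3 and 90.8 on HFD in TMM-scaled CPM. All HFD libraries lay far above all NCD libraries, with a log2 fold change of 2.75 (SE 0.353, adjusted p = 0.0219), and 2.61 (SE 0.368, adjusted p = 0.0107) without NCD replicate 1. Lair1, an inhibitory collagen receptor of leukocytes, stood at 8.4, 13.9 and 9.45 on NCD and 50, 49.9 and 70.1 on HFD, also without overlap, with a log2 fold change of 2.42 (SE 0.265, adjusted p = 0.0212), and 2.29 (SE 0.261, adjusted p = 0.00734) without NCD replicate 1. Ddr2, a kinase receptor of fibrillar collagen, and Itga1, an integrin chain, passed only in the fit without NCD replicate 1 (adjusted p = 0.0243 and 0.0229, against 0.0569 and 0.216 with all libraries).

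Markers of other cell types were compared over the same libraries. Of all genes tested, 5.58% passed as higher and 1.9% as lower with all libraries, and 10.7% and 10.1% without NCD replicate 1. The sum of 10 macrophage genes was 395, 909 and 828 on NCD and 5042, 2473 and 3062 on HFD in TMM-scaled CPM. Of these genes 5 of 10 passed as higher, 10 of 10 without NCD replicate 1, and all 10 lay higher without overlap (against 20.5% of all genes). The sum of 10 fibroblast and progenitor genes, from cells that make collagen, was 981, 1536 and 1193 on NCD and 1665, 2021 and 1367 on HFD, with overlap. Dcn alone held 416, 900 and 747 of it on NCD and 716, 700 and 401 on HFD. The median log2 fold change of the list was 0.77, with 5 of 10 genes higher without overlap and 1 of 10 passing (Fbn1). The endothelial sum was 286, 826 and 975 on NCD and 1190.1, 1015 and 1011 on HFD, with 5 of 8 genes higher without overlap. Of these, 0 of 8 passed by edgeR and 2 as higher without NCD replicate 1. The mesothelial sum was 383, 204 and 132 on NCD and 289, 676 and 222 on HFD, highest in HFD replicate 2. In NCD replicate 1 Upk1b held 151 and Krt19 134 of it. Of the 7 genes, 2 lay higher without overlap and 1 passed (Msln). None of the 10 adipocyte, 8 smooth muscle and myofibroblast, and 10 epithelial genes passed with all libraries by edgeR (0 of each list). Yet 4 of 8 smooth muscle and 5 of 10 epithelial genes lay lower on HFD without overlap (against 18.7% of all genes), and 0 of 10 adipocyte genes. The median log2 fold changes were -0.61 for adipocyte, -3.23 for smooth muscle and -6.05 for epithelial genes. Without NCD replicate 1, 5 adipocyte, 3 smooth muscle and 5 epithelial genes passed as lower, against 10.1% of all genes. The part of these cells in the collagen levels was not tested.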

How the data were processed

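RNA-seq counts of gWAT were used as the authors deposited them, whole reads per gene with no normalization, in 6 columns matched to samples by the names in the labels (0 columns were left over). HFD replicate 3 follows the title of its sample, whose description and column carry the number 4. The submitters' processing notes name bcl2fastq 2.20.0, Trimmomatic, HISAT2 2.1.0, StringTie 1.3.4d and DESeq2 with builds mm10 and GRCm38. The annotation, strand setting and read filters are not stated in the sources used here, and the counting of overlapping genes could move counts between them.

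Of 19790 identifiers, 19742 received a symbol from RefSeq GRCm38.p6, and the other 48 held 0.629% of the counts. After filterByExpr (minimum count 10, minimum total 15) and TMM scaling, the quasi-likelihood F test of edgeR 4.0.16 (R 4.3.3) was run, with Benjamini-Hochberg adjustment over all genes kept. The SE was derived from the log2 fold change and F. Shares, ratios and the total had an exact permutation test. FPKM used GENCODE vM21 exon lengths. Every library held at least 49575113 counts, so the spread between libraries limits precision for abundant chains, and counting error for chains with few counts. In NCD replicate 1, however, 58.6% of the counts fell on the seminal vesicle genes. Its 44 chains held 86360 counts, against 277813 to 883699 in the other libraries. The fits were tested on simulated data, 3 libraries against 3. Simulated log2 fold changes of size 1 and 2 were recovered in 8% and 62.2% by edgeR, 12% and 72.4% by DESeq2, and 7% and 59.2% by limma-voom. Of the calls 0%, 16.2% and 1.52% were false. Each simulated gene had the same mean in all libraries of a diet. No simulated library thus carried seminal vesicle RNA as NCD replicate 1 did, and these shares may differ in the real data. A gene that did not pass may thus still differ, and some DESeq2 calls may be false. No library was a duplicate of another.

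Values per library are given for chains that passed with all libraries or without NCD replicate 1 and for the 10 highest per exon length. Of collagen making and receptors 12 genes are named, in order of the smaller p of both fits. P4ha1, P3h2, Tll1, P4hb, Serpinh1 and Ppib were added after their values were seen. Further chains are given with library values to complete their class, after their values were seen. The chains, lists and tests were chosen with earlier results of these data known. Alternatives were other scalings and filters, DESeq2 1.42.0, limma-voom (limma 3.58.1), the replicate number as a block and each library left out in turn. NCD replicate 3 alone was added after seeing the data.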

Additional observations from a re-analysis of the deposited data

How the results depend on the processing

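With all libraries, 3 collagen chains, 9 collagen-making genes and 1139 genes in all passed in edgeR's test. The chains numbered 5 with total counts only and 13 with DESeq2 (10 higher, and Col4a3, Col7a1 and Col17a1 lower). The collagen-making genes numbered 5 with upper-quartile scaling, 2 with total counts only, 5 with no filter, 14 with DESeq2, 5 with limma-voom and 0 with NCD replicate 3 alone. All genes numbered 3904 with DESeq2 and 529 with NCD replicate 3 alone. Leaving out 1 library each gave 0 to 9 chains, 0 to 15 collagen-making genes and 2 to 3234 genes, the highest value of each without NCD replicate 1. The share of calls that were higher was 74.6% with all libraries, 55.1% with DESeq2, 51.5% without NCD replicate 1 and 46.3% with NCD replicate 3 alone. Total counts only moved the median log2 fold change of all genes from -0.08 to 0.45, and changes under it are relative to that shift. With the replicate number as a block, 0 chains, 0 collagen-making genes and 12 genes passed. An unadjusted p under 0.05 was found for 16 chains both with the block and without it, against 3571 and 4524 of all genes. The numbers did not pair the samples (correlations of -0.05, -0.03 and -0.007), and no library correlated best with its own number, where HFD replicate 3 by its title bears the number 4 in its description. Over the fits that left out 1 library each, Col5a3 ran from -0.26 without NCD replicate 1 to 0.89 without NCD replicate 2, and it was also negative, at -0.09, without HFD replicate 1. The cause of these changes was not tested.

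Differences, HFD minus NCD, ranged over the fits that left out 1 library each from 8.91 to 12.8 percentage points for the fibrillar share, from -5.00 to 0.362 for network, from -0.119 to 1.32 for FACIT, from -1.73 to 1.86 for beaded filament, from -8.50 to -6.52 for multiplexin and from -2.36 to -0.212 for the remaining classes. The collagen total ranged from 0.583 to 0.848 percentage points. Log2 ratio differences ranged from 0.41 to 0.80 for Col1a1 to Col1a2, from -0.82 to -0.10 for Col3a1 to Col1a1, from -0.22 to -0.11 for Col4a1 to Col4a2, from -0.40 to -0.14 for Col5a1 to Col5a2, from -0.02 to 0.12 for Col6a1 to Col6a2 and from -1.31 to -1.15 for Col6a3 to Col6a1.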
